A study of Macaca mulatta with 28 samples.

Results

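Immediate early genes are genes that a cell transcribes within minutes of a stimulus without first making new protein. The set examined here held 10 of them, FOS, FOSB, JUN, JUNB, EGR1, EGR3, ARC, NR4A1, NPAS4 and DUSP1, and its members were all entries of the deposited count table with these gene symbols, out of 16885 entries with a symbol. All 10 were found, and 8 passed the filter of at least 5 counts in at least 3 animals that left 13769 transcripts for testing. FOS and NR4A1 did not pass and are described by their counts alone. Membership was set by gene symbol and not by a cutoff on these values, but the members were chosen with earlier results of these data known.

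The tissue was a punch of the VTA (ventral tegmental area), where the dopamine neurons that project to the nucleus accumbens have their cell bodies, from 28 adult male rhesus macaques (Macaca mulatta) labelled as wild type. Of these, 17 had self-administered ethanol for many months and 11 were controls, either calorically yoked or housing controls, and the labels do not say which control was which. Drinkers were labelled by intake category as Low (1 animal), Binge (2), Heavy (5) or Very Heavy (9), and Low and Binge were joined here into 1 group of 3. All tissue was taken at the end of the last abstinence period of 30 days, after anesthesia with ketamine and isoflurane and perfusion with ice-cold solution, and the controls went through the same tissue preparation. The animals came from 2 cohorts. Cohort 1 held 8 drinkers (1 Low, 4 Heavy, 3 Very Heavy) and 8 controls, and cohort 2 held 9 drinkers (2 Binge, 1 Heavy, 6 Very Heavy) and 3 controls, so category and cohort overlapped only in part. There was 1 library per animal, with 12303914 to 27338669 total counts (median 22020291), of which 36.4% to 60.6% came from 13 mitochondrial transcripts. Summed markers of dopamine neurons ranged from 29.1 to 1690 CPM (counts scaled to a library of 1000000) between animals, so the share of dopamine neuron RNA in the punches was far from even.

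Most immediate early genes encode transcription factors. FOS and FOSB proteins pair with JUN proteins to form the AP-1 complex, EGR1 and EGR3 are zinc finger factors, NR4A1 is an orphan nuclear receptor and NPAS4 is a factor made mainly in neurons after calcium entry. ARC acts at synapses, where it promotes the internalization of glutamate receptors, and DUSP1 is a phosphatase that switches off the MAP kinases that induced it. Serum response factor, which binds the CArG box, and CREB, which binds the cAMP response element (CRE), carry kinase signals to many of these promoters. In neuroscience their mRNA is read as a marker of recent neuronal activity, and a truncated, long-lived product of FOSB has been studied widely after repeated exposure to drugs of abuse.

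The promoters of the 5 members in the pairs that passed the test of correlation between animals, FOSB, EGR1 and DUSP1 in 3 pairs and JUN and JUNB in another, are shown as the 250 bases before the annotated start in Mmul_10, read 5′ to 3′ on the strand of the gene. Capitals mark CArG boxes, the full CRE (TGACGTCA) and its shorter core (TGACG, or CGTCA on the other strand), which overlaps the full CRE. EGR1 lies at chr6:135874082-135877338 on the plus strand, and the window is chr6:135873832-135874081. FOSB lies at chr19:45527685-45534869 on the plus strand, with the window chr19:45527435-45527684. DUSP1 lies at chr6:170168726-170171764 on the minus strand, with the window chr6:170171765-170172014. JUN lies at chr1:165651412-165653728 on the plus strand, with the window chr1:165651162-165651411, and JUNB at chr19:12369848-12371689 on the plus strand, with the window chr19:12369598-12369847.
EGR1: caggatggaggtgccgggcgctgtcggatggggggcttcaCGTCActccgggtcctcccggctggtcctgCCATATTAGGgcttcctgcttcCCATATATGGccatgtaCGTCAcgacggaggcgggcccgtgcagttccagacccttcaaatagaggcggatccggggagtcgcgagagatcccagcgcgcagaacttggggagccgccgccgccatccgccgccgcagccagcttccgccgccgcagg
FOSB: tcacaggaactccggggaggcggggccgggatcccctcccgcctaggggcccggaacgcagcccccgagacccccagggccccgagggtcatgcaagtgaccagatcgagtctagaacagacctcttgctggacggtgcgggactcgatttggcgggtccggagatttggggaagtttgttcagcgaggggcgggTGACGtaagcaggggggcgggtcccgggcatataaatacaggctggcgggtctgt
DUSP1: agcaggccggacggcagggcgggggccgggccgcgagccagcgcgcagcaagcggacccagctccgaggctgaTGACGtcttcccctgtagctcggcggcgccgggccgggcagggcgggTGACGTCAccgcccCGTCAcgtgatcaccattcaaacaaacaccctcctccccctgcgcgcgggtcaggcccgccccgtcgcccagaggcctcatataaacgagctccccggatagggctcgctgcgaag
JUN: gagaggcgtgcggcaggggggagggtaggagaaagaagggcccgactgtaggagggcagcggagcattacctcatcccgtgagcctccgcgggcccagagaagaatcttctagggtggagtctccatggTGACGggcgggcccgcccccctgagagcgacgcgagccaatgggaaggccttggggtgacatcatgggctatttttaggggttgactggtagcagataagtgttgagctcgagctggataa
JUNB: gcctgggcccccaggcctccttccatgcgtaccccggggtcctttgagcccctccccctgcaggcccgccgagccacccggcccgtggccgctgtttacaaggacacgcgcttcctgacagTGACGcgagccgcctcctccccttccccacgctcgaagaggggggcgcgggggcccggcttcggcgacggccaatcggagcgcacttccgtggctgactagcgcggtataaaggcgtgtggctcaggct

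In windows from 250 bases before to 50 after the start, the core was found in 9 of the 10 members and in 24.2% of 20774 annotated promoters. The exception was ARC. EGR1 held 2 CArG boxes, at -180 to -171 and -158 to -149 from the start, EGR3 held 1, and the box was found in 1.2% of promoters. DUSP1 alone held the full CRE, at -130 to -123, which 2.02% of promoters had. No member window held the EGR site GCGTGGGCG (0.847% of promoters, both strands) or the AP-1 site TGACTCA or TGAGTCA (3.62%). These matches describe letters in a short window and say nothing of binding in this tissue. The other members were annotated at chr7:137394931-137397381 (FOS), chr8:22873159-22878972 (EGR3), chr8:142884603-142888074 (ARC), chr11:51642226-51666836 (NR4A1) and chr14:8131388-8137081 (NPAS4).

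Among the AP-1 genes, FOS was at 0 in most animals. Its entry, 1 transcript, was listed at 0 in 23 of 28 animals, and the other 5 had 12 counts (Control 1), 11 (Very Heavy 4), 3 (Control 2), 3 (Very Heavy 3) and 2 (Control 11). NR4A1 was listed at 0 in all 28. A count of 0 allows up to 3 counts, or 0.11 to 0.244 CPM in these libraries by total counts alone. The other CPM were also scaled between libraries by TMM, which put the 3 FOS counts of Control 2 at 0.21 CPM. The limit of 3 counts covers counting error only. The table has 1 transcript for each gene symbol, so reads that were assigned to other transcripts of FOS or NR4A1 are not part of these values, and no fold change or test is given for either gene. The same limit holds for every other member, list gene and marker, so each level given is that of 1 listed transcript. SLC1A2, of the astrocyte marker list, was likewise at 0 in every animal.

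FOSB had the widest spread of the 8 members tested. Its level ran from 1.51 CPM in Very Heavy 2 to 99.1 CPM in Very Heavy 9, a 65.8-fold range, and the standard deviation of its log2 CPM, 1.6, was above that of 83.5% of the transcripts tested. Controls lay between 1.71 and 43.6 CPM with a median of 3.63 CPM. The Heavy animals had 38.1, 10.1, 8.47, 5.05 and 1.95 CPM of FOSB, the Binge animals 9.81 and 15.4 CPM, and the Low animal 11.1 CPM. Very Heavy animals lay between 1.51 and 99.1 CPM with a median of 3.53 CPM. The 4 highest animals, at 99.1, 43.6, 42.5 and 38.1 CPM, were Very Heavy 9, Control 11, Control 10 and Heavy 1. Drinkers and controls therefore overlapped up to 43.6 CPM, and Very Heavy 9 alone lay above.

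EGR1 was high in the same 4 animals. Its level ran from 12.1 CPM in Control 5 to 135.9 CPM in Very Heavy 9, an 11.2-fold range with a log2 SD of 0.913 that exceeded 61.5% of transcripts. After Very Heavy 9 came Heavy 1 (119.7 CPM), Control 11 (96.2 CPM) and Control 10 (70.2 CPM), and no other animal was above 59.7 CPM. Controls lay between 12.1 and 96.2 CPM (median 29.5 CPM) and Very Heavy animals between 13.3 and 135.9 CPM (median 37.4 CPM). The Heavy animals had 119.7, 49.6, 47.4, 17.2 and 16.5 CPM of EGR1, the Binge animals 51.3 and 59.7 CPM, and the Low animal 28.4 CPM. Again the categories overlapped.

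JUN, JUNB and DUSP1 varied much less. JUN lay between 37.0 and 101.8 CPM (log2 SD 0.323), JUNB between 3.74 and 15.9 CPM (log2 SD 0.5) and DUSP1 between 19.7 and 47.1 CPM (log2 SD 0.303), against a median log2 SD of 0.618 over all transcripts tested. Heavy 1 had the highest JUN and JUNB, at 101.8 and 15.9 CPM, and Very Heavy 9 the highest DUSP1, at 47.1 CPM. DUSP1 had a median of 27.1 CPM in controls, from 19.7 to 43.8 CPM, and of 32.6 CPM in drinkers, from 23.2 to 47.1 CPM.

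The other 3 members had low counts. EGR3 had at most 30 counts in any library and was listed at 0 in Very Heavy 1 and Very Heavy 2, and its highest level was 1.41 CPM in Very Heavy 7. ARC lay between 0.312 and 3.49 CPM, with 6 to 84 counts, lowest in Very Heavy 2 and highest in Very Heavy 1. NPAS4, the member most particular to neurons, lay between 0.106 and 5.3 CPM, with 2 to 134 counts, lowest in Low 1 and highest in Binge 1. The differences between animals in these 3 genes therefore rest on few counts. CPM is not scaled by transcript length, so levels are compared here between animals and not between genes.

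**Figure D1:**
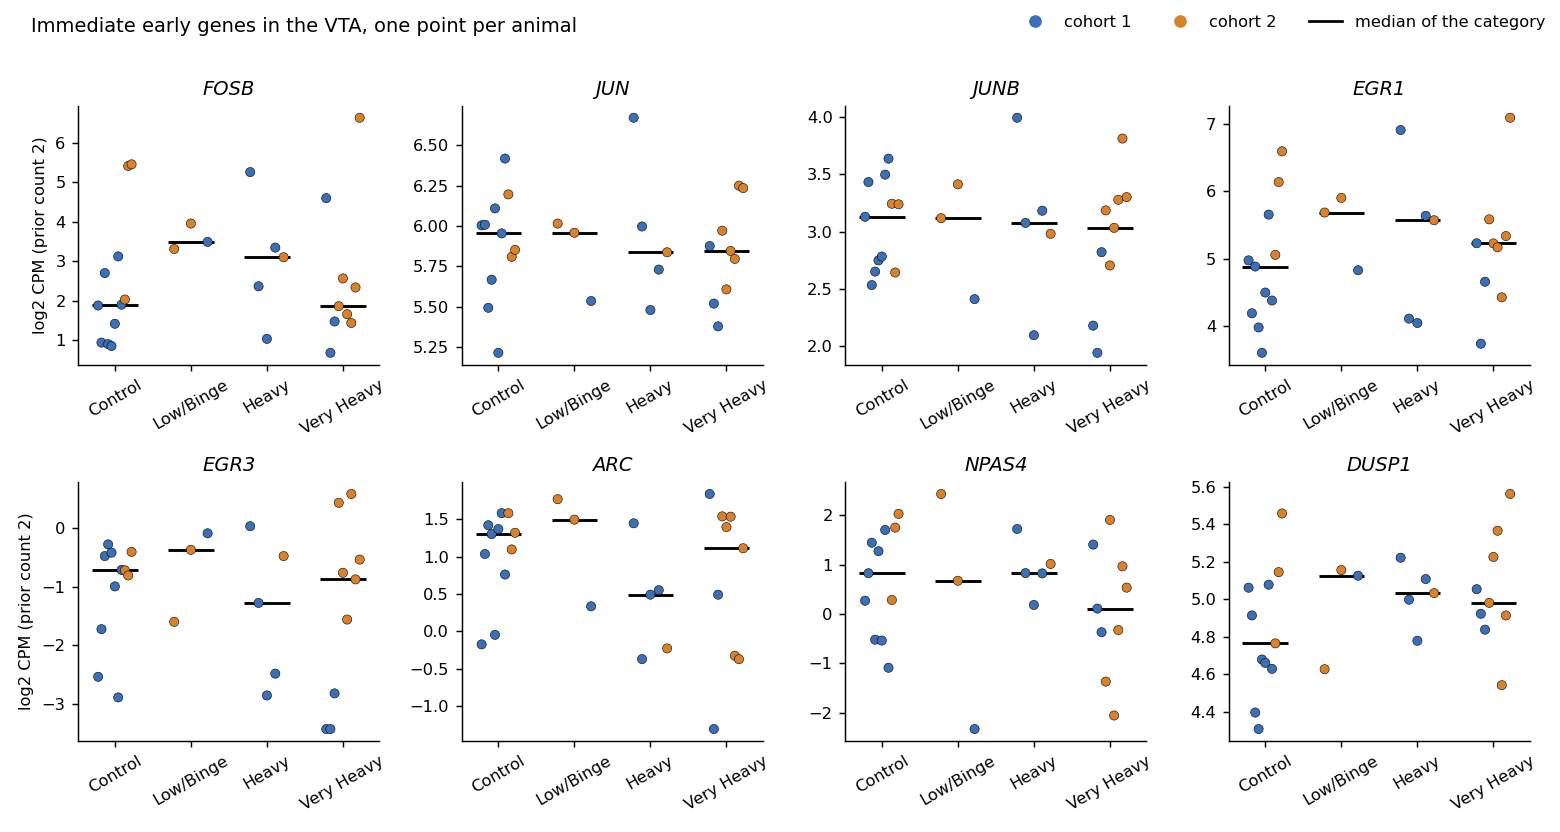
Level of the 8 members tested in each animal (y axis, log2 CPM with a prior count of 2) by drinking category (x axis), with 1 point per animal, blue for cohort 1 and orange for cohort 2, and a bar at the median. The 4 highest FOSB and EGR1 values belong to 2 controls, 1 Heavy and 1 Very Heavy animal, and the categories overlap in every panel.

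No member passed the test between drinkers and controls. In edgeR's quasi-likelihood test over 17 drinkers and 11 controls, 0 of 8 members passed an adjusted p of 0.05 (0.0% of all 13769 transcripts tested did), and 0 of 8 had an unadjusted p under 0.05 (4.57% of transcripts, or 629, did). By DESeq2 11 transcripts passed and by limma-voom 0, with no member among them. In log2 FOSB differed by 0.41 (SE 0.66), EGR1 by 0.34 (SE 0.35), EGR3 by 0.12 (SE 0.62), ARC by -0.21 (SE 0.33) and NPAS4 by -0.17 (SE 0.47). The narrow genes gave the tightest estimates, -0.016 (SE 0.12) for JUN, -0.022 (SE 0.2) for JUNB and 0.18 (SE 0.11, edgeR adjusted p = 1.0) for DUSP1. The median over the 8 members was 0.05, with 4 above and 4 below 0, beside 0.0015 over all transcripts. In bulk tissue, fewer cells of a type and less RNA per cell cannot be told apart, and this holds for each level given here.

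The sign of the FOSB value turned without a single animal. Without Very Heavy 9 the log2 fold change was -0.24, and without Control 11 it was 0.93. DESeq2, with its default replacement of outlying counts left on, gave -0.26 in the fit that left no animal out. Whether the count of Very Heavy 9 was replaced there was not recorded. The EGR1 value was 0.15 without Very Heavy 9 and 0.6 without Control 11.

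No member passed the tests of drinking category either. In the fit with 4 levels of category, the edgeR test for any difference had 0 members with an adjusted p under 0.05 (0.0% of transcripts) and 0 with an unadjusted p under 0.05 (5.67%), the lowest unadjusted p being that of DUSP1, 0.451. In the edgeR tests of Very Heavy animals against controls no member passed the adjusted threshold (0.0% of transcripts) or had an unadjusted p under 0.05 (4.47%), with log2 differences from -0.48 (SE 0.56) for NPAS4 to 0.58 (SE 0.78) for FOSB. The FOSB value was -0.85 by DESeq2, again with replacement of outlying counts left on. The medians were 3.53 CPM in Very Heavy animals and 3.63 CPM in controls. Heavy animals against controls gave 0 members on both criteria (0.0% and 6.77% of transcripts), from -0.62 (SE 0.48) for ARC to 0.46 (SE 0.49) for EGR1, which was -0.15 without Heavy 1, while 7 of 8 neuron markers were above 0 there (median 0.44) and 7 of 8 dopamine neuron markers below (median -0.75). Low and Binge animals against controls, with 3 animals, gave 0 and 0 (0.0% and 4.84%), with errors up to 1.13 for FOSB. Very Heavy against Heavy animals gave 0 and 0 (0.0% and 6.51%), and Low and Binge against Very Heavy animals gave 0 and 0 (0.0% and 4.36%). By DESeq2 27 transcripts passed for Very Heavy and 44 for Heavy animals against controls, with no member among them.

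ARC was the member with the largest difference from controls in the Heavy group. Heavy animals had 0.681, 0.762, 1.31, 1.38 and 2.64 CPM of ARC, and controls lay between 0.794 and 2.91 CPM with a median of 2.38 CPM. Of the 5 Heavy animals 2 were below the lowest control, and the groups overlapped for the rest, with an edgeR adjusted p of 0.953. Without Heavy 1 the difference in log2 was -1.0 in place of -0.62. In Very Heavy animals ARC spanned 0.312 to 3.49 CPM, which covers the whole range of the 28 animals.

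All 8 members had a higher mean in cohort 2 than in cohort 1, and none passed the adjusted threshold. With drinkers and controls as a term in edgeR, 0 of 8 members had an adjusted p under 0.05 (0.0436% of transcripts did, 6 of 13769), and 2 of 8 had an unadjusted p under 0.05 (9.8% did). These were FOSB, with a log2 difference of 1.46 (SE 0.6, edgeR p = 0.0225, adjusted p = 0.381), and EGR1, with 0.8 (SE 0.31, edgeR p = 0.0161, adjusted p = 0.327). The median over the 8 members was 0.44, beside 0.017 over all transcripts. The low-count genes EGR3 (0.95, SE 0.63), NPAS4 (0.5, SE 0.47) and ARC (0.39, SE 0.34) had wide errors, and JUNB (0.23, SE 0.2), DUSP1 (0.19, SE 0.11) and JUN (0.1, SE 0.13) differed by less.

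EGR1 lay between 12.1 and 119.7 CPM in cohort 1 (median 23.9 CPM, n = 16) and between 21.4 and 135.9 CPM in cohort 2 (median 47.6 CPM, n = 12). Heavy 1 was the only animal of cohort 1 above 50.3 CPM. FOSB had medians of 3.6 CPM in cohort 1 and 7.14 CPM in cohort 2, with ranges of 1.51 to 38.1 and 2.61 to 99.1 CPM. The FOSB difference fell to 0.77 in log2 without Very Heavy 9 and rose to 1.82 without Heavy 1, and that of EGR1 ranged from 0.63 to 1.14 over the 28 fits that each left out 1 animal. Cohort and everything that differed between the cohorts in handling or sequencing cannot be told apart. Among cell type markers, 3 of 4 astrocyte genes had an unadjusted p under 0.05 between the cohorts, beside 9.8% of all transcripts. They were led by SLC1A3 with a log2 difference of 0.47 (SE 0.16, edgeR adjusted p = 0.227). The summed astrocyte markers had medians of 651 CPM (486 to 786) in cohort 1 and 749 CPM (539 to 1250) in cohort 2. AQP4, 1 of these 3, was near 0, with means of 0.331 and 0.711 CPM, and GFAP, which was not among them, averaged 6.17 CPM ± 10.5 (SD) in cohort 1 and 3.64 CPM ± 2.12 in cohort 2. Of the oligodendrocyte markers 5 of 6 had values below 0 (median -0.2), and their sum had medians of 16900 CPM (11500 to 21100) in cohort 1 and 14400 CPM (13100 to 19300) in cohort 2, and of the neuron markers 6 of 8 had values below 0 (median -0.21), while the 1 with an unadjusted p under 0.05, STMN2, was above 0 at 1.19 (SE 0.53, edgeR adjusted p = 0.444). The 1 oligodendrocyte marker with an unadjusted p under 0.05 was MOBP at -0.42 (SE 0.15). Of the dopamine neuron markers 5 of 8 had values below 0 (median -0.39). Of the endothelial and mural cell markers 3 of 7 did, and the 1 with such a p was ACTA2 at -0.48 (SE 0.22). No marker of these lists passed the adjusted threshold, and the part of the markers in the member differences was not tested.

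Within drinkers alone the cohort difference was smaller for the genes that led it. In 8 drinkers of cohort 1 and 9 of cohort 2, edgeR gave FOSB 0.52 (SE 0.8) and EGR1 0.46 (SE 0.42), with 0 of 8 members below an adjusted p of 0.05 (0.796% of 13195 transcripts) and 0 below an unadjusted p of 0.05 (13.2%). Again all 8 members had values above 0, with a median of 0.39, beside 0.015 over all transcripts. The FOSB medians ran the other way, at 7.55 CPM in cohort 1 drinkers and 5.81 CPM in cohort 2 drinkers, where Very Heavy 9 had 99.1 CPM and the next animal 15.4 CPM. EGR1 had medians of 26.8 CPM in cohort 1 drinkers and 47.4 CPM in cohort 2 drinkers. Its highest animals were Heavy 1 in cohort 1 (119.7 CPM, next 49.6) and Very Heavy 9 in cohort 2 (135.9 CPM, next 59.7). No fit of drinkers alone left either animal out. EGR3 showed the largest value, 1.21 (SE 0.87), with a median of 0.0673 CPM in cohort 1 drinkers and 0.598 CPM in cohort 2 drinkers. Of the 3 cohort 2 controls, FOSB was 43.6, 42.5 and 3.98 CPM and EGR1 was 96.2, 70.2 and 33.2 CPM, so 2 of these 3 controls were above 8 of the 9 cohort 2 drinkers for both genes. Between drinkers of the 2 cohorts, 3 of 4 astrocyte markers (median 0.39) and 3 of 7 neuron markers (median -0.34) had an unadjusted p under 0.05, beside 13.2% of transcripts. Of 8 dopamine neuron markers 6 were below 0 (median -0.56). None of these markers passed the adjusted threshold, and their part was not tested.

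The log2 difference between drinkers and controls had opposite signs in the 2 cohorts for 6 of 8 members. It was above 0 in cohort 1 and below in cohort 2 for FOSB, EGR1 and DUSP1, and the reverse for JUNB (-0.24 and 0.17), EGR3 (-0.51 and 0.27) and JUN (-0.064 and 0.00011, which is close to 0). Only FOSB passed an unadjusted p of 0.05 for the difference between the cohorts, as given further on. Within cohort 1, 8 drinkers against 8 controls, FOSB had a log2 difference of 1.64 (SE 0.63, edgeR p = 0.0186, adjusted p = 0.339), DUSP1 of 0.28 (SE 0.12, edgeR p = 0.0323, adjusted p = 0.419) and EGR1 of 0.61 (SE 0.42). FOSB lay between 1.51 and 38.1 CPM with a median of 7.55 CPM in these drinkers and between 1.71 and 8.6 CPM with a median of 3.07 CPM in these controls, so the groups overlapped. DUSP1 lay between 27.3 and 37.2 CPM in these drinkers and between 19.7 and 33.7 CPM in these controls. EGR1 had medians of 26.8 CPM (13.3 to 119.7) in these drinkers and 21.6 CPM (12.1 to 50.3) in these controls. The EGR1 value of 119.7 CPM was that of Heavy 1, with the next drinker at 49.6 CPM. This contrast was not refitted without Heavy 1, so how far the sign and size for EGR1 rest on that animal was not tested. Thus 0 members passed the adjusted threshold (0.0382% of 13086 transcripts did, or 5) and 2 of 8 had an unadjusted p under 0.05 (10.2% did). The other 5 members had values below 0, among them ARC (-0.35, SE 0.47) and NPAS4 (-0.063, SE 0.59). General neuron markers had the sign of FOSB, EGR1 and DUSP1. All 7 tested had a value above 0 (median 0.51, beside -0.0047 over all transcripts), among them SNAP25 at 0.51 (SE 0.22, edgeR p = 0.0362) and NEFL at 0.73 (SE 0.33, edgeR p = 0.0416), and the sum of the 8 markers had medians of 4120 CPM (2480 to 6770) in these drinkers and 2490 CPM (1480 to 4390) in these controls. Of the dopamine neuron markers 7 of 8 had values below 0 (median -0.37), and their sum had medians of 249 CPM (36.0 to 1600) and 312 CPM (29.1 to 1690).

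Within cohort 2, 9 drinkers against 3 controls, FOSB differed by -0.82 (SE 1.05), EGR1 by -0.32 (SE 0.44) and DUSP1 by -0.07 (SE 0.2). No member passed either criterion (0.0% and 3.76% of 12785 transcripts). The test of the difference between the cohorts' contrasts had 0 members with an adjusted p under 0.05 (0.0145% of transcripts, or 2) and 1 with an unadjusted p under 0.05 (9.62%), which was FOSB with an interaction of -2.47 in log2 (SE 1.19, edgeR p = 0.048, adjusted p = 0.512). The interaction was -0.95 (SE 0.66) for EGR1 and -0.35 (SE 0.23) for DUSP1. The cohort 2 side of each rests on 3 controls. Without Control 11 the cohort 2 difference was 0.037 for EGR1 and 0.11 for DUSP1, so their signs turned, and that of FOSB was -0.45. General neuron markers again had the sign of FOSB, EGR1 and DUSP1, opposite to that in cohort 1. All 7 tested had a value below 0 (median -0.33), led by NEFL at -0.77 (SE 0.2, edgeR p = 0.002, adjusted p = 1.0), and the sum of the 8 had medians of 2390 CPM (1930 to 2930) in drinkers and 3970 CPM (2500 to 4140) in the 3 controls. Of the dopamine neuron markers 7 of 8 were below 0 in cohort 2 as well (median -0.69). In the test of the difference between the contrasts all 8 general neuron markers were below 0 (median -0.83), with NEFL at -1.5 (SE 0.45, edgeR p = 0.00239) and SNAP25 at -0.84 (SE 0.33, edgeR p = 0.0158), and none passed the adjusted threshold, and 6 of 8 dopamine neuron markers were below 0 (median -0.35). The part of the neuron markers in the member differences within the cohorts was not tested.

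**Figure D2:**
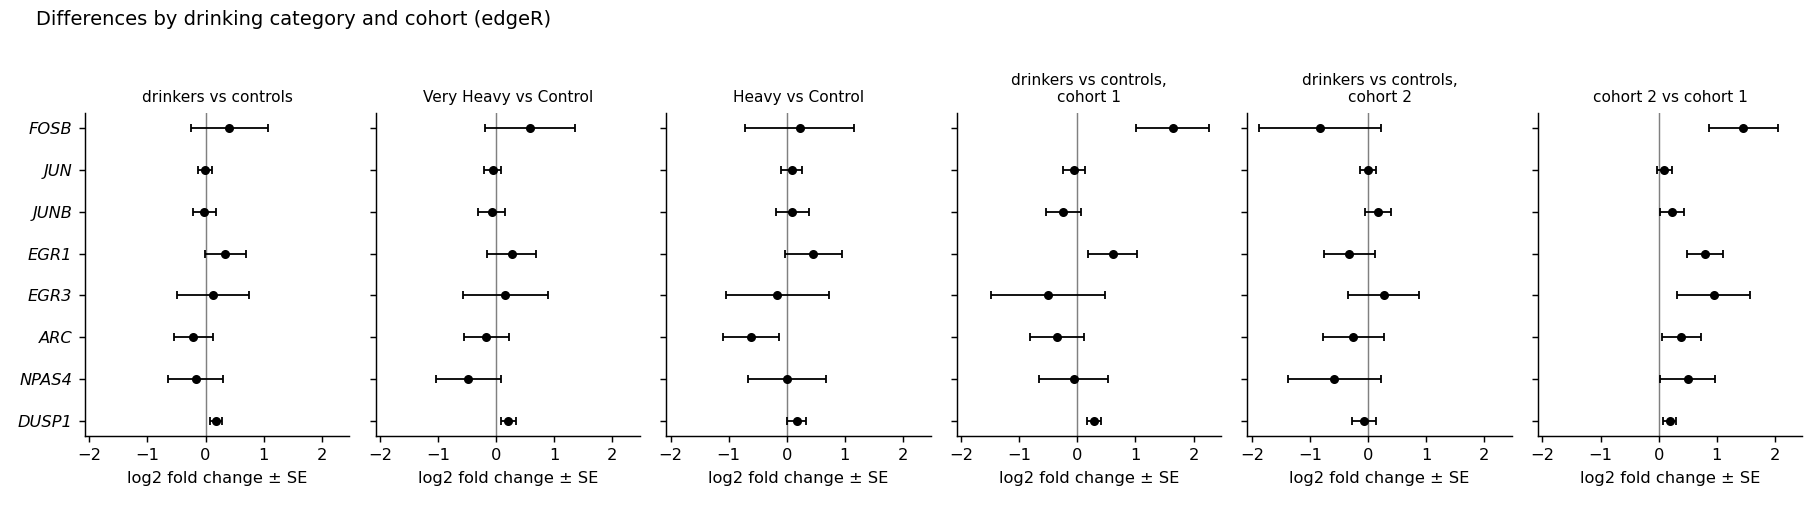
Log2 fold change with its standard error (x axis) of the 8 members (y axis) in 6 edgeR comparisons, the first 5 against controls and the last of cohort 2 against cohort 1. FOSB stands at 1.64 in cohort 1 and -0.82 in cohort 2, all 8 members are above 0 in the last panel, and none of the 48 values passed the adjusted threshold.

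Pairs of members had higher correlations between animals than pairs of transcripts in general. Over the 28 pairs of the 8 members, Pearson's r of log2 CPM between 28 animals had a median of 0.24 and was above 0 in 26 pairs, and 14.3% of the pairs reached 0.5, beside a median of 0.00835 and a share of 1.29% over all pairs of transcripts tested. Values of an animal share its library, so the pairs are not independent, and these medians are a description. In permutation tests with 100000 draws, adjusted over the 28 pairs, 4 pairs passed by Pearson's r and 7 by Spearman's rho.

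FOSB and EGR1 formed the closest pair, with r = 0.887 (permutation p = 1e-05, the smallest that the draws can give, adjusted p = 0.00028) and rho = 0.857 (permutation adjusted p = 0.00028). The value was 0.874 in cohort 1, 0.937 in cohort 2, 0.845 in drinkers and 0.947 in controls. Without the 2 animals farthest from the median FOSB it was 0.837, and without the 4 animals of highest EGR1 it was 0.763. It stayed between 0.861 and 0.907 when each animal was left out in turn. FOSB and EGR1 therefore rose and fell together between animals in both cohorts and in both groups, as the plot of animals shows. Ranks from the highest still differed in some animals, such as Low 1 (7 for FOSB, 18 for EGR1) and Very Heavy 4 (19 and 9).

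DUSP1 followed both genes. It correlated with EGR1 at r = 0.676 (rho = 0.642, permutation adjusted p = 0.00119 and 0.00245) and with FOSB at r = 0.65 (rho = 0.632, permutation adjusted p = 0.00119 and 0.00245). Within cohorts the r of EGR1 and DUSP1 was 0.569 in cohort 1 and 0.715 in cohort 2, and that of FOSB and DUSP1 was 0.583 and 0.626. Both weakened without the 4 animals of highest EGR1, to 0.477 and 0.407, and then no longer passed the adjusted threshold. Without the 2 animals farthest from the median of EGR1 or FOSB they were 0.59 and 0.493, and the latter missed the threshold with a permutation adjusted p of 0.0717, while without the 2 farthest from the median of DUSP1 they were 0.689 and 0.686. Leaving out animals by their EGR1 level narrows its range, which can lower r in itself. DUSP1 was highest in Very Heavy 9, at 47.1 CPM, and Control 11, at 43.8 CPM, which were also among the 4 highest for FOSB and EGR1.

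JUN and JUNB, the partners of FOS proteins in AP-1, formed a second pair with r = 0.742 (permutation adjusted p = 0.00042) and rho = 0.725 (permutation adjusted p = 0.00042). The value was 0.728 in cohort 1, 0.73 in cohort 2, 0.789 in drinkers and 0.677 in controls, and 0.687 without the 4 animals of highest EGR1. When each animal was left out in turn r stayed between 0.686 and 0.785, lowest without Heavy 1. In drinkers JUN also correlated with EGR1 at r = 0.73, and in controls the value was -0.071. That difference between groups was not tested. In cohort 2 JUNB and EGR1 stood at -0.018, against 0.538 in cohort 1.

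**Figure D3:**
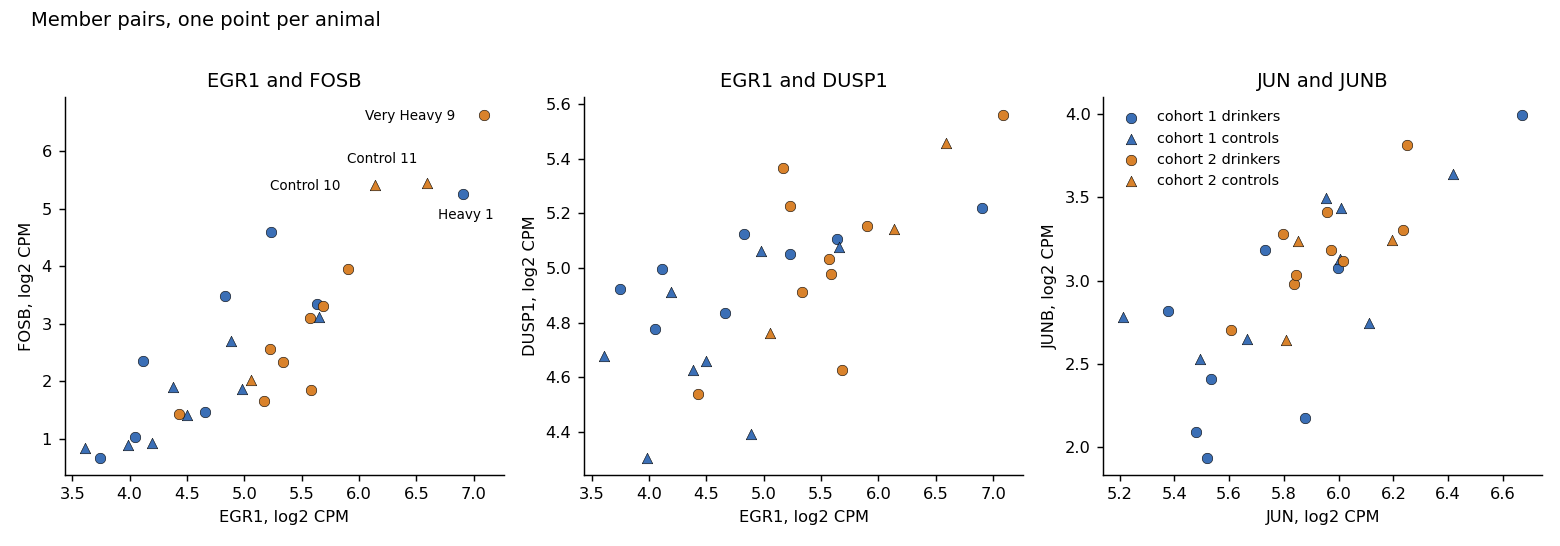
Log2 CPM of EGR1 against FOSB, of EGR1 against DUSP1 and of JUN against JUNB, with 1 point per animal, circles for drinkers, triangles for controls, blue for cohort 1 and orange for cohort 2. The r over 28 animals is 0.887, 0.676 and 0.742, and the 4 animals of highest EGR1 are named at the upper right of the first panel.

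A further 3 pairs passed by rank alone. EGR1 and ARC had r = 0.47 (permutation adjusted p = 0.0553) and rho = 0.493 (permutation adjusted p = 0.0396), FOSB and NPAS4 had r = 0.43 and rho = 0.521 (permutation adjusted p = 0.0881 and 0.0285), and EGR1 and NPAS4 had r = 0.368 and rho = 0.477 (permutation adjusted p = 0.138 and 0.0429). By Pearson's r, EGR1 and ARC passed within drinkers (r = 0.605, permutation adjusted p = 0.037). They also passed after centring within each cohort and group (r = 0.489, permutation adjusted p = 0.0401). Over all animals FOSB and EGR1 had r of 0.34 and 0.403 with JUN, and of 0.241 and 0.47 with JUNB, none past the threshold. Without the 4 animals of highest EGR1 these were 0.135 and 0.19 with JUN and 0.102 and 0.413 with JUNB. ARC and NPAS4, both induced by synaptic activity, had r = 0.158. The r of EGR3 ranged from -0.139 with NPAS4 and -0.0755 with DUSP1, the only pairs below 0, to 0.389 with JUNB, and its r with EGR1, a close relative in sequence, was 0.237. By the median of its r with the other 7 members, EGR1 (0.47) and FOSB (0.381) came first, and EGR3 (0.18), ARC (0.158) and NPAS4 (0.158) last. The counts of EGR3, ARC and NPAS4 were low, which limits what their correlations can show.

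The median r over the 28 pairs was 0.309 in cohort 1, with 25 pairs above 0, and -0.0182 in cohort 2, with 13 pairs above 0. In drinkers it was 0.371 and in controls 0.082. Leaving out the 4 animals of highest EGR1 brought the median to 0.122, with 23 pairs above 0. After centring within each cohort and group it was 0.243 over all 28 animals. The pairs with an r over 0.5 in both cohorts were FOSB and EGR1, FOSB and DUSP1, EGR1 and DUSP1, and JUN and JUNB, the same 4 that passed over all animals. Within the cohorts, with fewer animals, FOSB and EGR1 alone passed the adjusted threshold in both, JUN and JUNB passed in cohort 1, and the pairs with DUSP1 passed in neither.

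**Figure D4:**
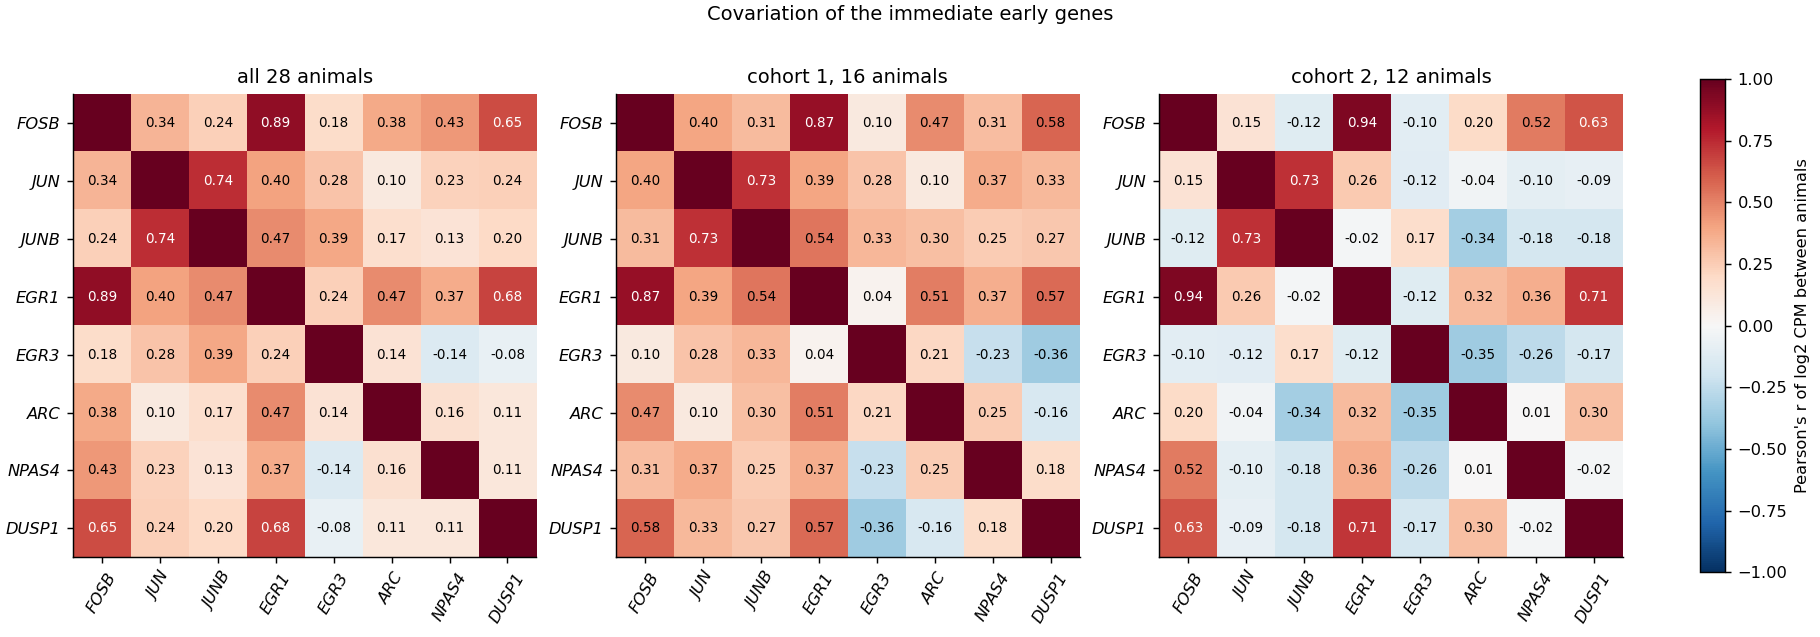
Pearson's r of log2 CPM for each pair of the 8 members (both axes list the genes, colour gives r) over all 28 animals, in cohort 1 and in cohort 2. The FOSB and EGR1 cell reads 0.89, 0.87 and 0.94 in the 3 panels and the JUN and JUNB cell 0.74, 0.73 and 0.73, while most other cells of cohort 2 lie near or below 0.

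The same few animals were high for several members. Heavy 1, of cohort 1, was among the 4 highest for 5 of the 8 members and had a median rank of 3.5 of 28. Very Heavy 9 and Control 11, both of cohort 2, were among the 4 highest for 4 members each. At the other end, Very Heavy 2 was among the lowest 7 for 6 members. These animals came from different categories, and being high was not particular to drinkers or controls.

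No relation of a member to the library measures tested passed the threshold. Total counts, the mitochondrial share and the mean z-scores of 6 cell type marker lists were correlated with each of the 8 members, and 0 of 64 relations passed the adjusted threshold by Pearson's r or by Spearman's rho, while 5 had an unadjusted permutation p under 0.05 by Pearson's r. These were EGR1 with oligodendrocyte markers (r = -0.412, rho = -0.446), NPAS4 with oligodendrocyte markers (r = -0.445, rho = -0.426) and with the mitochondrial share (r = -0.455, rho = -0.498), JUN with endothelial and mural cell markers (r = 0.47, rho = 0.462) and EGR3 with dopamine neuron markers (r = 0.452, rho = 0.489). The r of EGR1 with oligodendrocyte markers was -0.472 in cohort 1 and 0.0181 in cohort 2. With neuron markers EGR1 had r = 0.334 (rho = 0.143) and FOSB r = 0.302 (rho = 0.141), and for EGR1 it was 0.585 in cohort 1 and 0.174 in cohort 2. The summed neuron markers had a median of 3230 CPM (2390 to 4980) in the 4 animals of highest EGR1 and of 2510 CPM (1480 to 6770) in the other 24. Summed dopamine neuron markers had medians of 278 CPM (91.6 to 1610) and 209 CPM (29.1 to 1690). The ranges overlapped, and the part of cell makeup in the high values was not tested. Blood cell markers could not be examined, since 0 of 7 passed the filter. The number of transcripts with a count in a library was not among the measures tested. It was 10554 to 11898 in cohort 1 drinkers, 11718 to 12550 in cohort 1 controls and 11940 to 12696 in cohort 2. Its part in the member differences was not tested.

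The transcripts outside the set most alike to EGR1 were sought as well, a comparison that was added after values were seen. Among 8322 transcripts with a count in every animal, the 5 with the highest r were CCN1 (0.695), a secreted matrix protein induced by serum and stretch, KLF4 (0.69), a zinc finger transcription factor, ALDH5A1 (0.688), which breaks down succinic semialdehyde from GABA, PTS (0.68), an enzyme of tetrahydrobiopterin synthesis, and MYT1L (0.671), a neuronal transcription factor. CCN1 ran from 0.907 to 13.8 CPM, and its r with EGR1 was 0.518 in cohort 1 and 0.72 in cohort 2. KLF4 ran from 5.04 to 36.2 CPM, with 0.507 and 0.78, and fell to 0.421 without the 4 animals of highest EGR1. For JUN, taken by a rule on mean level and not for its role, the 5 most alike were CAVIN2 (0.735), ZNF414 (0.73), CACNA1H (0.719), FJX1 (0.708) and IER5L (0.692).

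By function, an r with EGR1 of 0.5 or more was found for 142 of 13768 other transcripts (1.03%) and for 3 of 14 other rapid-response transcription factors tested, which were KLF4, FOSL2 (r = 0.581, rho = 0.587) and KLF2 (r = 0.568, rho = 0.548). Among 16 feedback regulators TRIB1 (r = 0.607, rho = 0.537) reached it, among 15 activity-regulated effectors CCN1 (rho = 0.704), while INHBA of the same list, which encodes a subunit of activin, had r = -0.492 (rho = -0.515), and among 26 upstream kinases and transcription factors CAMK2A (r = 0.535, rho = 0.525), the abundant calcium-dependent kinase of synapses. Without the 2 animals farthest from the median, FOSL2 (0.498), KLF2 (0.44) and TRIB1 (0.475) were below 0.5, which left 1 of 14 rapid-response factors and 0 of 16 feedback regulators. Without the 4 animals of highest EGR1, KLF4 (0.421), FOSL2 (0.472) and KLF2 (0.387) were all below it, while TRIB1 (0.508), CCN1 (0.607) and CAMK2A (0.504) were above it, as were IER5 (0.511), CREB1 (0.525) and the glucocorticoid-induced SGK1 (0.512), which had 0.0925, 0.35 and 0.392 over all animals. Over all animals no gene of the 7 glucocorticoid-induced or the 8 heat shock genes did. The median r was 0.275 for the rapid-response factors, 0.249 for the feedback regulators, 0.173 for the effectors, 0.109 for the upstream genes, 0.16 for the glucocorticoid-induced and -0.128 for the heat shock genes, beside 0.0368 over all transcripts. NR4A2, a relative of NR4A1 that dopamine neurons need, had an r of 0.0105 with EGR1.

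None of these lists held a gene that passed edgeR's adjusted threshold between drinkers and controls. Of the 14 rapid-response factors 10 had values above 0 and 4 below, led by EGR2 with a log2 difference of 0.7 (SE 0.58) and MAFF with 0.28 (SE 0.24), and the median was 0.091. The 16 feedback regulators had a median of 0.0097, led by DUSP6 (0.19, SE 0.13) and DUSP5 (0.5, SE 0.4), relatives of DUSP1. Among 15 effectors the median was 0.14, and the lowest unadjusted p belonged to RASGRP1, which was listed at 0 in all 11 controls and averaged 0.208 CPM in drinkers, followed by PTGS2 (-0.21, SE 0.14). The 26 upstream genes had a median of -0.078, led by CRTC2, a coactivator of CREB, at 61.4 CPM ± 6.38 (SD) in drinkers and 68.4 CPM ± 8.41 in controls (edgeR adjusted p = 1.0), and by MAP2K2, with means of 0.537 and 0.0706 CPM. All 7 glucocorticoid-induced genes had a value above 0, with a median of 0.019, led by CDKN1A (0.46, SE 0.23) and ERRFI1 (0.083, SE 0.1), but in Very Heavy animals against controls 2 were above and 5 below 0 (median -0.022), and within cohort 2 it was 3 and 4. Of 8 heat shock genes HSPD1 (0.36, SE 0.17) and HSPE1 (0.34, SE 0.17) had an unadjusted p under 0.05, 2 of 8 beside 4.57% of all transcripts.

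Between the cohorts, too, no list gene passed the adjusted threshold over all 28 animals. The log2 difference of cohort 2 from cohort 1 was 0.6 (SE 0.22) for KLF4, 0.82 (SE 0.31) for CCN1, 0.74 (SE 0.26) for SOCS3, 0.31 (SE 0.13) for GADD45B and 0.38 (SE 0.11) for SGK1, with edgeR adjusted p from 0.179 to 0.381. NR4A2 averaged 0.724 CPM ± 0.902 (SD) in cohort 1 and 0.166 CPM ± 0.12 in cohort 2 (edgeR adjusted p = 0.302). RPS6KA5 and MAP2K2 were near 0, with means of 0.0366 and 0.608 CPM in cohort 1 and 0.315 and 0.014 CPM in cohort 2. ERRFI1 differed by -0.19 (SE 0.1) and RHEB by -0.15 (SE 0.077). The heat shock genes had a median of -0.17, beside 0.017 over all transcripts, with 5 of 8 at an unadjusted p under 0.05, beside 9.8% of all transcripts, led by HSP90AA1 (-0.3, SE 0.065, edgeR adjusted p = 0.0899) and BAG3 (-0.23, SE 0.089). The median over the 14 rapid-response factors outside the set was 0.0049, with 7 above and 7 below 0.

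RHEB, a small GTPase that activates mTOR and whose mRNA is induced by synaptic activity, was the only gene of these lists to pass in any of the edgeR comparisons between groups or cohorts. It was lower in drinkers of cohort 2 than of cohort 1, with a log2 difference of -0.38 (SE 0.064, edgeR adjusted p = 0.0192), and its contrast of drinkers and controls differed between the cohorts by -0.63 (SE 0.11, edgeR adjusted p = 0.0398). This was 1 of 85 list genes tested in the first comparison (1.18%), beside 0.796% of all transcripts, or 105, and 1 of 86 in the second (1.16%), beside 0.0145%, or 2. In the comparison of drinkers 6 of 7 neuron markers had values below 0 (median -0.34), led by NEFL at -1.01 (SE 0.26, edgeR adjusted p = 0.0656) and SNAP25 at -0.59 (SE 0.15, edgeR adjusted p = 0.0724), and in the difference between the contrasts all 8 did. Their part in the RHEB values was not tested.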

How the data were processed

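The authors trimmed the reads with Trim Galore 0.6.7, quantified them with Salmon 1.9.0 on Mmul_10, and deposited the estimated counts as they were, not normalized, in a table with 1 column per animal and 1 Ensembl transcript per gene symbol (the submitters' processing notes and the study's methods; DESeq2 1.36.0 served their own normalization). Libraries were made with the Nugen Universal Plus mRNA kit. The 1 entry without a symbol held 1.16e-05 percent of the counts and was left out. Groups came from the labels and cohorts from the study's source data. No pair of libraries shared identical counts for more than 14.4% of the transcripts tested, so each was counted as its own animal.

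Counts were rounded, and those transcripts that reached 5 counts in 3 or more animals were tested with edgeR 4.0.16 (TMM, quasi-likelihood test, Benjamini-Hochberg over all transcripts, threshold 0.05) in R 4.3.3. CPM were scaled by TMM. Category contrasts came from 1 fit with 4 levels, and the cohort contrast had drinkers or controls as a term. SE is the log2 fold change divided by the square root of F. Alternatives were DESeq2 1.42.0, limma 3.58.1 (voom), RLE size factors, other filters, the 13 mitochondrial transcripts left out, cohort as a term and single animals left out. DESeq2 ran with its default settings, which replace outlying counts in larger groups. Correlations used log2 CPM with a prior count of 2 and 2-sided permutation tests with 100000 draws (Python 3.11.15, numpy 2.4.6, pandas 2.3.3, scipy 1.17.1). Both were tested on simulated data. Figures used matplotlib 3.10.9. Promoters were read from the Mmul_10 genome with its RefSeq annotation.

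The members and the other gene lists were chosen with earlier results of these data known. All 10 members are named. Of the lists of related genes, those past the adjusted threshold are named, or else, between drinkers and controls and between the cohorts, the 2 with the lowest p. Markers were named after values were seen, and most alike are the 5 transcripts of highest r with JUN. The comparisons with EGR1 were added after values were seen. Marker lists covered dopamine neurons, all neurons, oligodendrocytes, astrocytes, microglia, endothelial and mural cells, and blood. p-values measure the spread between animals.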

Additional observations from a re-analysis of the deposited data

Results flagged for a closer look

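Single animals stood far from the rest of their group in 8 instances, out of 40 sets of values (8 members in 5 groups), by Dixon's criterion at 95%, which chance alone meets in about 1 of 20 sets of normal values. CPM are skewed, and on the log2 scale, tried after values were seen, 1 instance was left, that of FOSB in Very Heavy 9 among drinkers of cohort 2. The groups share animals, so the instances are not independent. Very Heavy 9 had 99.1 CPM of FOSB, with the next Very Heavy animal at 24.1 CPM and the next drinker of cohort 2 at 15.4 CPM, and 135.9 CPM of EGR1, with the next at 47.8 CPM among Very Heavy animals and 59.7 CPM among drinkers of cohort 2. Heavy 1 had 38.1 CPM of FOSB, with the next Heavy animal at 10.1 CPM. Among drinkers of cohort 1, Heavy 1 also stood apart with 119.7 CPM of EGR1 (next 49.6 CPM), 101.8 CPM of JUN (next 63.8 CPM) and 15.9 CPM of JUNB (next 8.98 CPM). All 8 instances on the CPM scale were at the upper end and came from these 2 animals.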

How the results depend on the processing

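In each comparison refitted, no member tested passed the adjusted threshold under any alternative. EGR3, ARC and NPAS4 were not tested with at least 10 counts in every animal, which left 5 members. No paired analysis was possible because the labels do not say which control was yoked to which drinker, and the replicate numbers follow accession order. The cause of the changes below was not tested.

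The count of all transcripts passed moved from 0 to 11 with DESeq2 and to 5 within cohort 1 (drinkers against controls), from 0 to 27 (Very Heavy) and 44 (Heavy against controls) with DESeq2, and for the cohorts from 6 to 121 with DESeq2, 23 with limma-voom, 3 with RLE size factors, 10 with at least 10 counts in every animal and 0 to 8 when each animal was left out (0 without Binge 2, Control 11 or Very Heavy 1). Within cohort 2 it was 0 to 1 when each control was left out.

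Signs that changed among members, none past the threshold, were for drinkers against controls those of FOSB (-0.26 with DESeq2, -0.82 within cohort 2), EGR3 (-0.38 with limma-voom, -0.24 with cohort as a term, -0.51 within cohort 1), JUN (0.0013 with limma-voom, 0.00011 within cohort 2) and, within cohort 2, JUNB (0.17), EGR1 (-0.32) and DUSP1 (-0.07). For Very Heavy animals against controls they were FOSB (-0.85 with DESeq2), EGR3 (-0.58 with limma-voom, -0.78 with cohort as a term) and EGR1 (-0.087 with cohort as a term). With each animal left out in turn, drinkers against controls ranged from -0.24 to 0.93 for FOSB, -0.079 to 0.045 for JUN, -0.11 to 0.046 for JUNB, -0.061 to 0.21 for EGR3 and -0.37 to 0.0014 for NPAS4. Heavy against controls ranged from -0.77 to 0.49 for FOSB, -0.13 to 0.19 for JUN, -0.2 to 0.28 for JUNB, -0.15 to 0.68 for EGR1, -0.72 to 0.13 for EGR3 and -0.25 to 0.16 for NPAS4. Low and Binge against controls ranged from -0.067 to 0.28 for FOSB, -0.16 to 0.069 for JUN, -0.3 to 0.18 for JUNB, -0.1 to 0.53 for ARC and -1.23 to 0.84 for NPAS4. Within cohort 2, the ranges were -0.073 to 0.13 for JUN, -0.005 to 0.27 for JUNB, -0.65 to 0.037 for EGR1 and -0.23 to 0.11 for DUSP1. Each member kept the sign of the cohort difference in every refit that tested it.

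Of the 28 member pairs 4 passed, against 7 with Spearman's rho, 9 within drinkers, 2 within cohort 1, 1 within cohort 2 and 1 within controls, and 6 after centring within cohort and group and 2 without the 4 animals of highest EGR1, the last 2 settings being added after values were seen. The median r moved from 0.24 to -0.0182 within cohort 2. FOSB and EGR1 passed under every setting.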
